A study of Rattus norvegicus with 15 samples.

Results

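The 10 genes described here serve the secretory pathway and the response to stress in the endoplasmic reticulum (ER). They are Hspa5, Pdia3, Pdia4, Calr, Canx, Tmed2, Creb3l2, Xbp1, Atf4 and Ddit3, taken by name from 18166 genes with a single symbol in the probe annotation. Each had 1 probe set among the 36685 of the array, so no choice between probe sets was needed. They were measured in knee articular cartilage (right side) taken from rats of the Sprague-Dawley strain at 5 stages of life, with 3 arrays of total RNA per stage. T0 stands for newborn rats, T1 for youth and T2 for adult animals, while T3 holds what the labels call early-stage elderly and T4 what they call latter-stage elderly rats. All rats share the strain, no animal carries an allele or agent named in the labels, and the labels give no age, sex or array batch. The labels call the arrays of a stage biological replicates from individually harvested knees. T1 replicate 3 carries the word adult in its source name and youth in its other labels. It was kept in T1, and an alternative placed it in T2.

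Chondrocytes, the cells of cartilage, secrete large amounts of collagen and proteoglycan, which are folded in the ER and carried to the Golgi in vesicles. When unfolded protein builds up, sensors in the ER membrane start the unfolded protein response, which raises chaperone genes through XBP1 and ATF6 and slows translation while ATF4 is made. In mouse, CREB3L2 (also called BBF2H7) is an ER-membrane transcription factor of chondrocytes that drives the vesicle coat gene Sec23a. Prolonged stress raises DDIT3 (CHOP), a factor linked to cell death.

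Promoter windows, each 300 bases long and reaching just past the annotated start, were found for 9 of the 10 genes in RefSeq sequence of the GRCr8 build. Pdia3 had none in the table used. The windows were searched on both strands for the ER stress response element (ERSE), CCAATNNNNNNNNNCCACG, for the core of the cyclic AMP response element (CRE), TGACGT, and for the element bound by ATF4 with C/EBP factors, TGATGNAA. An ERSE match stood in 4 of the 9 windows, those of Hspa5, Calr, Canx and Xbp1, against 22 of 33469 windows in the whole table (0.0657%). The CRE core stood in 3 of the 9, those of Hspa5, Canx and Creb3l2, against 7.94% of all windows. TGATGNAA stood in none of the 9, against 3.98% of all windows. No match overlapped another. The stretches that hold the matches are given 5′ to 3′ on the strand of the gene, with each match in capitals, because they show the 19-letter element that the 4 genes have in common. That of Calr lies in reverse. The stretches lie at chr3:38452861-38453011 (plus strand) for Hspa5, chr19:40213117-40213173 (plus) for Calr, chr10:35157951-35158107 (minus) for Canx, chr14:84604538-84604596 (plus) for Xbp1 and chr4:66991003-66991048 (minus) for Creb3l2.
Hspa5: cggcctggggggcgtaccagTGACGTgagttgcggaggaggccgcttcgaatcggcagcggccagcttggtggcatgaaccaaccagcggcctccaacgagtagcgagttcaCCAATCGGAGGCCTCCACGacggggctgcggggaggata
Calr: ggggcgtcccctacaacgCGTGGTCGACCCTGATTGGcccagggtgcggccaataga
Canx: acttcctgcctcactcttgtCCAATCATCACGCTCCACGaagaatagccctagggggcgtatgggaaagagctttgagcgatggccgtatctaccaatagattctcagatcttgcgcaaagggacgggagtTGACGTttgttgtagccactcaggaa
Xbp1: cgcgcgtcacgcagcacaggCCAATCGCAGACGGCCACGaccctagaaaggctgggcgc
Creb3l2: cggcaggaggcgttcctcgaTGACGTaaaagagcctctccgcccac

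A match is a run of letters and does not show that a factor binds there. Among 133 other genes of the pathway lists used here with a promoter window, 5 held an ERSE match. They were the co-chaperone Dnajc3, the chaperone Hsp90b1, the stress-induced Creld2, the disulfide oxidase Ero1b and the degradation gene Derl3, named after the search was seen.

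**Figure D1:**
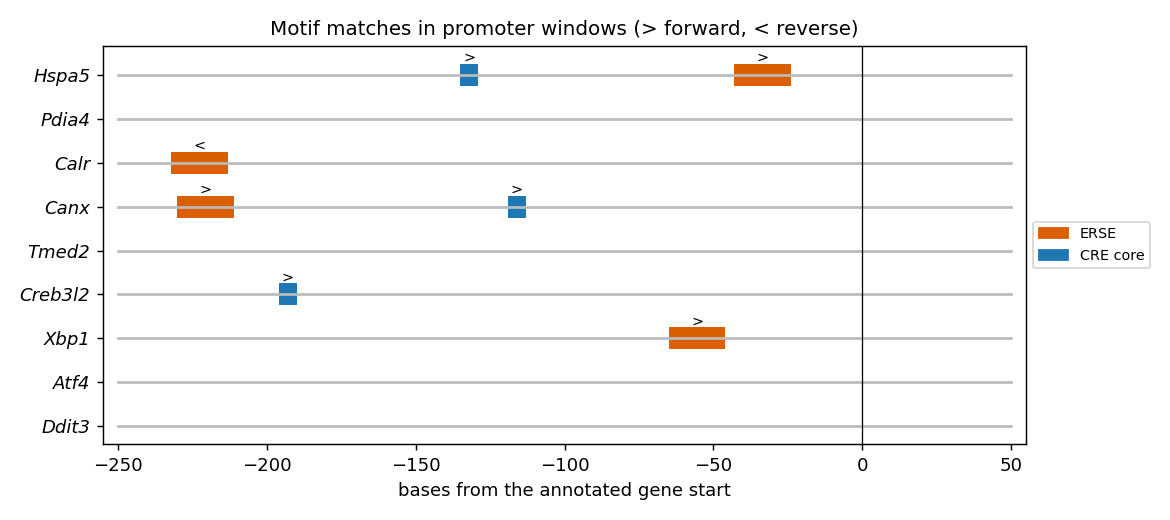
Motif matches in the promoter windows of the 9 genes with a RefSeq window, in bases from the annotated start (0, vertical line). Orange bars mark ERSE matches, present in Hspa5, Calr, Canx and Xbp1, blue bars mark the CRE core, and arrowheads give the direction of the match.

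Cartilage markers and array properties changed with stage and stand beside all later values. The mean log2 signal of the type II collagen gene Col2a1 was 12.4 in newborn, 12.5 in youth and 11.9 in adult cartilage, then 9.70 at T3 and 8.001 at T4, while stage means of the chondrocyte regulator Sox9 lay between 5.12 and 5.58. The T4 arrays stood apart, with a standard deviation over probe sets of 1.48 to 1.71, against 1.83 to 1.97 at T3 and 2.00 to 2.05 at T0 to T2. The median of 53 ribosomal protein genes was 6.58 to 9.04 at T4 and at least 9.64 on every earlier array, and that of 1185 olfactory receptor genes was 3.57 to 4.38 at T4 and at most 3.41 before. T4 replicate 1 lay farthest out, as the array with the ribosomal median of 6.58, and its correlation with the arrays of T0 to T2 averaged 0.529. Signals are log2 values on a scale where 1 unit is a factor of 2. In bulk tissue, fewer cells of a type and less RNA per cell cannot be told apart.

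Over the 5 stages, the genes fell into 3 courses. The chaperones Hspa5, Pdia3, Pdia4, Calr and Canx, the cargo receptor Tmed2 and the stress regulator Atf4 were high through T3 and fell most at T4. In this group all Pdia3 arrays of T3 lay below those of T2, and all Tmed2 arrays of T0 above those of T1 and T2. Creb3l2 fell early, and Xbp1 was lower at T3 and T4. Ddit3 stood near the middle of each array's signals, with its lowest stage means at T0 (4.98) and T4 (5.10). All 10 genes passed limma's moderated F test over the stages at a Benjamini-Hochberg adjusted p under 0.05 (adjusted p from 1.77e-05 for Creb3l2 to 0.0399 for Canx), as did 60.1% of all probe sets. Without the T4 arrays 5 of the 10 passed over T0 to T3, against 25.5% of all probe sets. These were Creb3l2 (limma adjusted p = 0.000132), Xbp1 (0.00902), Pdia3 (0.0188), Tmed2 (0.0303) and Ddit3 (0.0384). The stage means of Hspa5, Pdia3, Pdia4, Creb3l2 and Tmed2 were lower at every step, which held for 5 of 10 genes and for 6.44% of all probe sets.

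**Figure D2:**
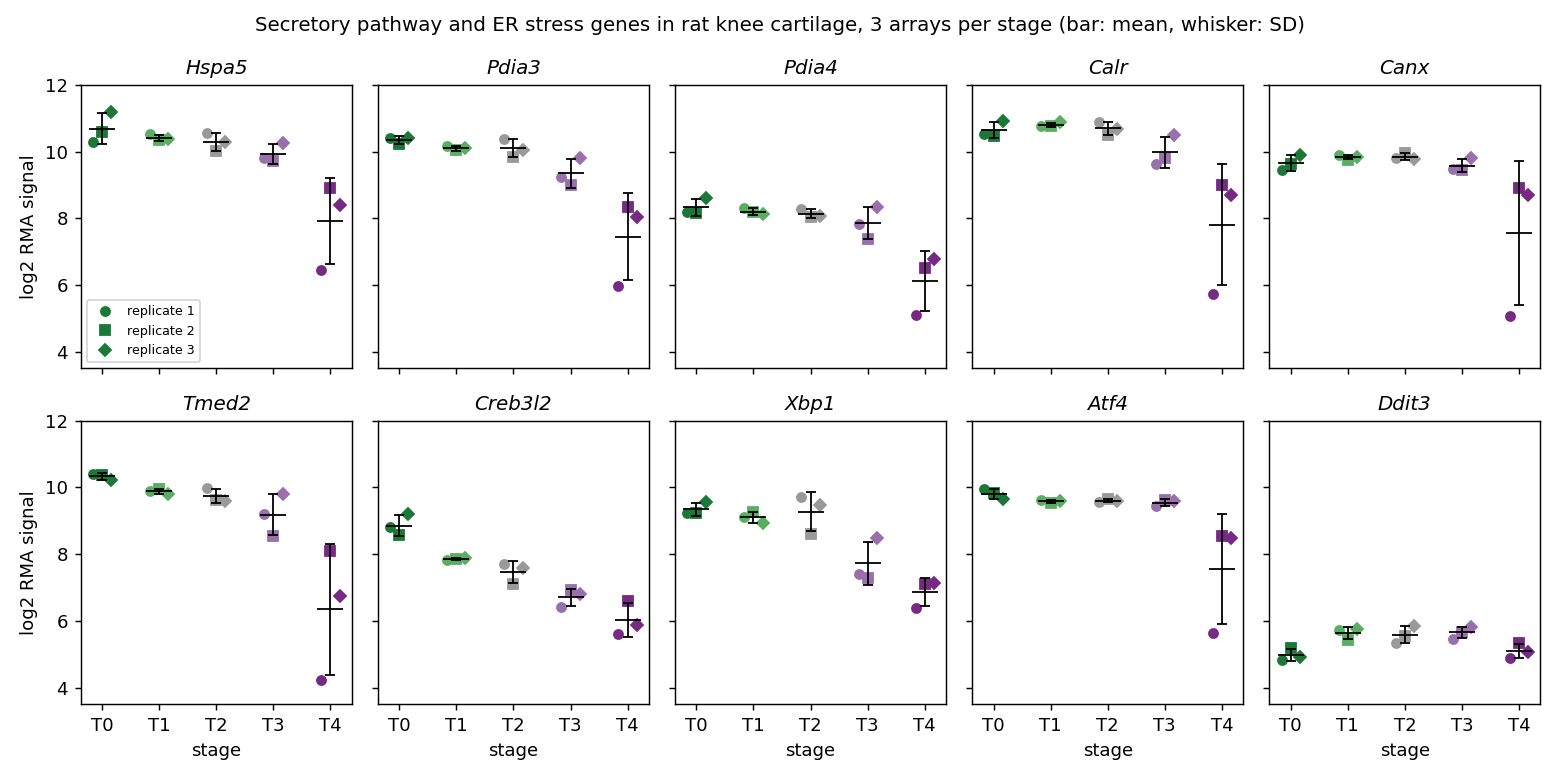
Log2 RMA signal of the 10 genes on each array, by stage from newborn (T0) to latter-stage elderly (T4). Symbols are the 3 replicates, the bar is the stage mean and the whisker the SD. Creb3l2 is lower at each stage, Xbp1 is lower from T3, and T4 replicate 1 is the lowest T4 array for all 10 genes.

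The ER chaperones had steady signals through the first 3 stages. Hspa5 encodes BiP, the main chaperone of the ER lumen. Its log2 signals were 10.29, 10.58 and 11.20 at T0, 10.52, 10.34 and 10.39 at T1, 10.56, 10.03 and 10.29 at T2, 9.81, 9.72 and 10.27 at T3, and 6.45, 8.90 and 8.39 at T4. The arrays of T0, T1 and T2 overlapped, those of T2 and T3 overlapped, and all T4 arrays lay below all others. Hspa5 differed by -0.40 (SE 0.46) between T2 and T0 and by -0.36 (SE 0.46) between T3 and T2 in limma's fit, and neither passed. It fell by 2.38 at T4 against T2 (SE 0.46, 5.20-fold, limma adjusted p = 0.000798), and its fall was 1.65 without T4 replicate 1 (SE 0.28, 3.14-fold, limma adjusted p = 0.000439). On each array of T0 to T3 the Hspa5 signal stood above at least 98.2% of probe sets, and at T4 above 84.3% to 97.9%.

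Calr encodes calreticulin, a lectin of the ER lumen that holds newly made glycoproteins, and its signals were 10.53, 10.48 and 10.91 at T0, 10.76, 10.75 and 10.88 at T1, 10.90, 10.51 and 10.68 at T2, 9.62, 9.82 and 10.51 at T3, and 5.73, 9.01 and 8.71 at T4. T3 replicate 3 matched the lowest T2 array to 2 decimals, while the other T3 arrays lay below T2. Calr fell by 2.88 at T4 against T2 (SE 0.60, 7.37-fold, limma adjusted p = 0.00127), and by 1.84 without T4 replicate 1 (SE 0.25, 3.58-fold). Canx encodes calnexin, the membrane-bound relative of calreticulin. Its signals were 9.46, 9.62 and 9.91 at T0, 9.89, 9.76 and 9.84 at T1, 9.81, 9.97 and 9.78 at T2, 9.48, 9.45 and 9.82 at T3, and 5.06, 8.92 and 8.71 at T4. All T4 arrays lay below every other array, with replicate 1 far below its stage. Canx fell by 2.29 at T4 against T2 (SE 0.69, 4.88-fold, limma adjusted p = 0.012), and without T4 replicate 1 the fall was 1.04 (SE 0.19, 2.05-fold, limma adjusted p = 0.000674). This library moved the fold by more than 1.5 times for Canx, and also for Hspa5, Calr, Pdia3, Tmed2 and Atf4. The Canx call was lost after quantile normalization (limma adjusted p = 0.105), with arrays set to the same median and SD (0.0563) and with only the T2 and T4 arrays in the fit (0.0821).

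The protein disulfide isomerases Pdia3 and Pdia4 form and rearrange disulfide bonds in the ER lumen, and PDIA3 works with calreticulin and calnexin. Pdia3 had 10.41, 10.22 and 10.41 at T0, 10.18, 10.03 and 10.11 at T1, 10.39, 9.85 and 10.06 at T2, 9.24, 8.99 and 9.81 at T3, and 5.96, 8.34 and 8.05 at T4. All T3 arrays lay below all T2 arrays, as for 10.4% of all probe sets. This difference of -0.75 (SE 0.45) between T3 and T2 did not pass (limma adjusted p = 0.368, and 0.06 without the T4 arrays). Pdia3 fell by 2.65 at T4 against T2 (SE 0.45, 6.26-fold, limma adjusted p = 0.000341), and the difference was -1.90 without T4 replicate 1 (SE 0.24, 3.74-fold). Pdia4 ran from 8.05 to 8.61 over the arrays of T0 to T2, from 7.38 to 8.34 at T3 and from 5.11 to 6.78 at T4. It fell by 2.01 at T4 against T2 (SE 0.36, 4.02-fold, limma adjusted p = 0.000425), and the difference was -1.50 without T4 replicate 1 (SE 0.25, 2.83-fold).

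Tmed2, a p24 family receptor that sorts cargo into vesicles between ER and Golgi, had the largest fall of the 10 genes at T4. Its signals were 10.41, 10.39 and 10.21 at T0, 9.89, 9.96 and 9.81 at T1, 9.98, 9.63 and 9.60 at T2, 9.20, 8.56 and 9.79 at T3, and 4.23, 8.10 and 6.74 at T4. The T0 arrays lay above all T1 and T2 arrays, and the T4 arrays lay below all T3 arrays. Tmed2 fell by 3.38 at T4 against T2 (SE 0.65, 10.4-fold, limma adjusted p = 0.000765). The difference was -2.32 without T4 replicate 1 (SE 0.37, 4.99-fold). Tmed2 had an SD of 1.96 at T4, against 0.21 at T2, so the SE of 0.65, pooled over 5 stages, understates the error of this fall. Its highest limma adjusted p over 24 alternative fits was 0.0181. The newborn difference was smaller: T2 minus T0 gave -0.60 (SE 0.65, limma adjusted p = 0.763). The wide T4 arrays enter that pooled error. Without them the SE was 0.26 and the adjusted p 0.155, and with only the T2 and T0 arrays in the fit Tmed2 passed (limma adjusted p = 0.0347).

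Creb3l2 had the smallest F test p of the 10 genes and was the one that fell between newborn and adult. Its log2 signals were 8.81, 8.56 and 9.19 at T0, 7.82, 7.85 and 7.88 at T1, 7.71, 7.09 and 7.59 at T2, 6.43, 6.91 and 6.79 at T3, and 5.61, 6.59 and 5.89 at T4. Every array of a stage lay below every array of the stage before, except between T4 and T3, where they overlapped. Creb3l2 fell by 1.39 at T2 against T0 (SE 0.27, 2.62-fold, limma adjusted p = 0.00203) and by 1.44 at T4 against T2 (SE 0.27, 2.71-fold, limma adjusted p = 0.000567), where the difference was -1.23 without T4 replicate 1 (SE 0.26). These 2 calls passed under all alternatives run. Single steps were less secure. At T1 against T0 Creb3l2 fell by 1.01 (SE 0.27, 2.01-fold, limma adjusted p = 0.0309), and the call was lost without either T0 replicate 1 (-1.03, adjusted p = 0.0837) or T0 replicate 3 (-0.84, 0.143). It was also lost without any 1 of T1 replicates 1, 2 and 3 (-1.02 to -0.99, adjusted p from 0.0917 to 0.102), after quantile normalization (-0.92, 0.162), with arrays set to the same median and SD (-0.92, 0.0805) and with T1 replicate 3 placed with T2 (-1.02, 0.0894). A block for the replicate number narrowly lost this call as well. The steps from T1 to T2 (-0.39, SE 0.27), from T2 to T3 (-0.75, SE 0.27) and from T3 to T4 (-0.68, SE 0.27) did not pass (limma adjusted p = 0.895, 0.154 and 0.0515). The signal of Creb3l2 stood above 94.4% to 96.9% of probe sets on the T0 arrays and above 60.3% to 84.2% on the T4 arrays.

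Xbp1, which is spliced by the sensor IRE1 into an active factor that drives chaperone and secretory genes, had overlapping arrays from T0 to T2 and was low on the elderly arrays. A probe set of the gene does not separate spliced from unspliced messages here. The values were 9.22, 9.22 and 9.58 at T0, 9.11, 9.27 and 8.92 at T1, 9.72, 8.61 and 9.47 at T2, 7.40, 7.29 and 8.47 at T3, and 6.40, 7.09 and 7.14 at T4. T2 replicate 2 was the lowest adult array, T3 replicate 3 the highest of its stage, and none of the T2, T3 and T4 arrays overlapped between stages. T3 minus T2 gave -1.55 (SE 0.34, 2.93-fold), rank 249 by p of 36685 probe sets in this comparison, and narrowly missed the threshold (limma adjusted p = 0.0673). Few probe sets passed at this step (55 of 36685, 0.15%). The same difference passed without the T4 arrays (limma adjusted p = 0.0335, where 2.54% of probe sets fell), without T4 replicate 1 (0.0276, where 2.65% fell), without T3 replicate 3 (-1.93, 0.00442, where 11.4% of probe sets passed) and without T2 replicate 2 (-1.88, 0.0492). With array weights, in a fit that stopped before full convergence, 28.5% of probe sets passed and 12.4% fell. There the Xbp1 difference passed too (-1.83, limma adjusted p = 0.000609). In the other 20 of 25 alternatives it did not pass (limma adjusted p from 0.0513 to 0.239), among them quantile normalization (-1.30, 0.141), arrays set to the same median and SD (-1.44, 0.116) and only the T2 and T3 arrays in the fit (0.195). Xbp1 fell by 2.39 at T4 against T2 (SE 0.34, 5.25-fold, limma adjusted p = 0.000107), and the difference was -2.15 without T4 replicate 1 (SE 0.36, 4.44-fold).

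Atf4, the factor whose protein is made when translation is slowed, differed by little over the first 4 stages. Its signals were 9.96, 9.82 and 9.65 at T0, 9.62, 9.54 and 9.58 at T1, 9.57, 9.65 and 9.58 at T2, 9.43, 9.62 and 9.59 at T3, and 5.64, 8.54 and 8.48 at T4. Every array of T1 to T3 lay within 9.43 to 9.65. Atf4 fell by 2.05 at T4 against T2 (SE 0.53, 4.14-fold, limma adjusted p = 0.00513), and by 1.09 without T4 replicate 1 (SE 0.15, 2.13-fold, limma adjusted p = 0.000155), a change in size of more than 1.5 times from 1 library. The Atf4 call was lost after quantile normalization (limma adjusted p = 0.0931) and with only the T2 and T4 arrays in the fit (0.0539). ATF4 is controlled largely at translation, which an RNA array does not measure.

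Ddit3 stood near the middle of each array's signals and took another course. Its signals were 4.83, 5.19 and 4.92 at T0, 5.73, 5.43 and 5.76 at T1, 5.34, 5.55 and 5.85 at T2, 5.47, 5.67 and 5.82 at T3, and 4.90, 5.34 and 5.06 at T4. All arrays of T1, T2 and T3 lay above all T0 arrays, and T4 and T0 shared a range. T1 minus T0 gave 0.66 (SE 0.20, 1.58-fold, limma adjusted p = 0.0678) and T2 minus T0 gave 0.60 (SE 0.20, 1.52-fold, limma adjusted p = 0.0715). Both missed the threshold, and both passed without the T4 arrays (limma adjusted p = 0.038 and 0.0415, where 5.78% and 8.75% of probe sets rose). At T4 against T3 Ddit3 fell by 0.55 (SE 0.20, 1.47-fold, limma adjusted p = 0.0402). That call was lost without T4 replicate 1 (-0.45, adjusted p = 0.11), T3 replicate 3 (-0.47, 0.119), T4 replicate 3 (-0.53, 0.0827) or T3 replicate 2 (-0.55, 0.0671). It was also lost, at adjusted p between 0.0519 and 0.0521, without T0 replicate 3, T1 replicate 1, T1 replicate 3 or T2 replicate 2. The Ddit3 signal stood above 46.8% to 54.0% of probe sets at T0, above 56.4% to 65.1% at T1 to T3 and above 39.0% to 54.4% at T4. After quantile normalization T2 minus T0 gave 0.53 and T4 minus T2 gave -0.66, which puts the T4 mean below that of T0.

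Step by step, few of the 10 genes passed before T4. At T1 against T0, Creb3l2 fell and none rose, where 7.56% of all probe sets passed (3.54% fell and 4.01% rose). At T2 against T1, none of the 10 passed by limma and none had an unadjusted p under 0.05 (8.52% of probe sets did), where 0.891% of probe sets passed and 0.403% fell. At T2 against T0, Creb3l2 fell and none rose, where 12.7% of probe sets passed (6.19% fell and 6.51% rose). At T3 against T2, none passed by limma at the adjusted threshold, where 0.15% of probe sets passed and 0.112% fell. For 2 of the 10, Xbp1 and Creb3l2, limma's unadjusted p was under 0.05 and the difference negative, as for 8.89% of all probe sets. With array weights 4 of the 10 fell at this step, where 12.4% of probe sets fell. Pdia3 and Calr were the others (limma adjusted p = 0.0103 and 0.0133). The median difference of the 10 genes at T3 against T2 was -0.46, against 0.01 for all genes. A full separation, all later arrays below all earlier ones, held for 4 of 10 genes at T1 against T0 (17.4% of probe sets). The numbers were 1 at T2 against T1 (10.4%), 3 at T2 against T0 (18.5%) and 3 at T3 against T2 (10.4%). Ddit3 lay wholly above T0 at T1 and at T2, as did 14.9% and 17.8% of probe sets.

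Most of the 10 genes fell at T4. Against T3, 8 of 10 fell, where 42.2% of all probe sets passed and 25.8% fell, and the 2 that did not pass were Xbp1 (-0.84, SE 0.34, limma adjusted p = 0.0603) and Creb3l2. Against T2, 9 of 10 fell, where 56.5% of probe sets passed and 29.4% fell, and Ddit3 did not pass (-0.48, SE 0.20, limma adjusted p = 0.0546). The median difference at T4 against T2 was -2.33, against -0.12 for all genes. All T4 arrays lay below all T2 arrays for 10 of 10 genes and for 31.3% of probe sets. They lay below all T3 arrays for 9 of 10 genes and for 25.8% of probe sets. Without T4 replicate 1, 7 of 10 fell at T4 against T3 (21.2% of probe sets) and 9 of 10 at T4 against T2 (28.2%). After quantile normalization 4 of 10 fell at T4 against T3, where 17.6% of probe sets fell, and the calls of Pdia3, Calr, Canx and Atf4 were lost (limma adjusted p from 0.0596 to 0.151). With only the 6 arrays of T3 and T4 in the fit, none of the 10 passed, where 2532 probe sets did. The comparisons of T4 with T2 and with T3 share the T4 arrays. For genes with wide T4 arrays the pooled SE is too small in both. Canx had an SD of 2.17 at T4 and 0.10 at T2, and Calr 1.81 and 0.20. Over 24 alternative fits the highest limma adjusted p at T4 against T2 was 0.0169 for Hspa5. It was 0.105 for Canx and 0.0931 for Atf4. The array properties given above moved with these differences, and their part in them was not tested.

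**Figure D3:**
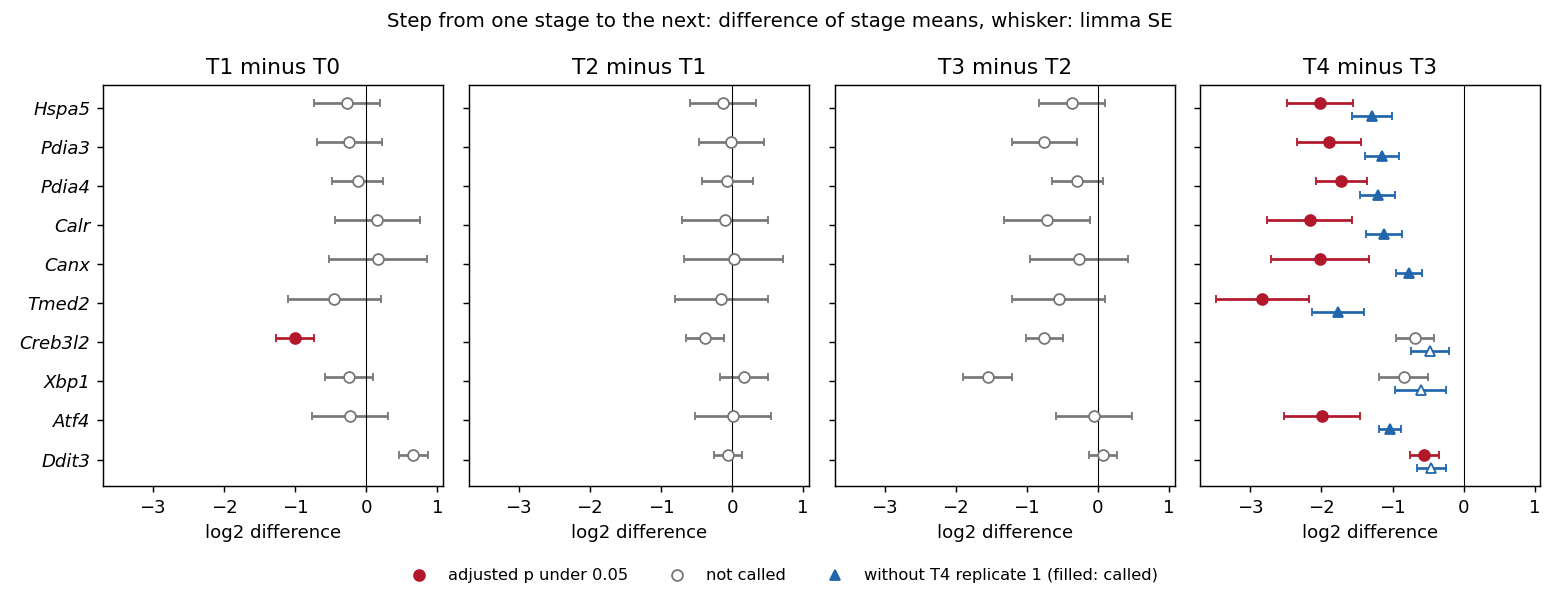
Difference of stage means on the log2 scale for each step, later minus earlier, with limma's SE as whisker. Filled red circles passed at an adjusted p under 0.05, open grey circles did not, and blue triangles in the T4 minus T3 panel leave out T4 replicate 1 (filled where they passed). Creb3l2 is the gene that passed at T1 minus T0, and 8 of 10 passed at T4 minus T3.

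Single arrays stood at the edge of their stage for several of the 10 genes. T0 replicate 3 was the highest newborn array for 7 of the 10 genes and for 34% of all probe sets. T2 replicate 1 was the highest adult array for 7 genes and 31.4% of probe sets, and T2 replicate 2 the lowest for 6 genes and 31.3%. At T1 replicates 1, 2 and 3 were highest for 5, 2 and 3 genes, and replicate 2 was the lowest for 6 genes and 32.5% of probe sets. T3 replicate 3 was the highest early-stage elderly array for 8 genes and 34.3% of probe sets, and had the widest spread of signals in its stage (SD 1.97, against 1.86 and 1.83). T3 replicate 2 was the lowest of that stage for 6 genes and 34.9% of probe sets. T4 replicate 1 was the lowest T4 array for all 10 genes and for 30.3% of probe sets, and the highest for 51.2% of probe sets.

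Wider lists of the secretory pathway, which include the 10 genes where they belong, gave the lowest medians at T2 against T0 for vesicle transport and for cartilage matrix cargo. Of 17 measured genes of the COPII coat, which carries cargo out of the ER, 4 fell and none rose at T2 against T0 (median -0.77, all genes -0.02). Of 13 genes of the COPI coat and the KDEL receptors, which return escaped ER proteins, 3 fell and none rose (median -0.70). Without the T4 arrays 10 of 17 and 8 of 13 fell, where 8.12% of all probe sets fell and 8.75% rose. In that same fit 5 of 17 translocation genes fell and 2 rose, 5 of 14 degradation genes rose and 2 fell, and 3 of 26 chaperone genes rose and 2 fell. The COPII adaptor Sec24d averaged 7.72 ± 0.35 at T2, against 8.98 ± 0.09 at T0 (SD, n = 3 arrays each, limma adjusted p = 0.0125), a call lost without T2 replicate 3 (adjusted p = 0.069). Its relative Sec24a averaged 6.90 ± 0.17 at T2, against 7.85 ± 0.06 at T0 (limma adjusted p = 0.00168, n = 3 each). The COPI subunit Copz2 averaged 7.24 ± 0.51 at T2, against 8.94 ± 0.27 at T0 (limma adjusted p = 0.000374, n = 3 each). The KDEL receptor Kdelr3 averaged 7.51 ± 0.36 at T2, against 8.86 ± 0.16 at T0 (limma adjusted p = 0.00121, n = 3 each).

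Sec23a, named here after its values were seen because CREB3L2 is known to drive it in mouse, had 8.20, 7.46 and 7.60 at T2, against 8.41, 8.64 and 9.06 at T0. All 3 adult arrays lay below all newborn arrays, and Sec23a fell by 0.95 (SE 0.25, limma adjusted p = 0.0183), a call lost in 5 of 24 alternative fits. Over the other stages Sec23a had 8.43, 8.54 and 8.40 at T1, 7.23, 6.73 and 7.43 at T3, and 5.88, 6.11 and 5.73 at T4. At T1 against T0 the Sec23a arrays overlapped and its difference of -0.25 did not pass (limma adjusted p = 0.814). Creb3l2 differed by -1.01 at that step. Creb3l1, a factor of the same family as Creb3l2, averaged 7.29 ± 0.66 at T2, against 8.60 ± 0.40 at T0 (limma adjusted p = 0.02, n = 3 each). That call was lost in 5 of 24 alternative fits, those without T0 replicates 1 or 3 or T2 replicates 2 or 3 among them (limma adjusted p up to 0.117). Over all 24 alternatives the difference ran from -1.66 to -1.01. The cargo list moved the same way: 10 of 13 cartilage matrix genes fell and 1 rose at T2 against T0 (median -1.67), with the matrix protein Matn1 at 5.42 ± 0.23 in the adult, against 10.33 ± 0.03 in the newborn (limma adjusted p = 1.33e-08, n = 3 each).

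The counts of the folding and stress lists at T2 against T0 stand beside 6.51% of all probe sets that rose and 6.19% that fell, and several were near those shares. Of 26 chaperone and folding genes, 2 rose and 2 fell at T2 against T0 (median -0.05). The oxidase Ero1b, which supplies disulfide bonds, averaged 6.63 ± 0.30 at T2, against 5.07 ± 0.23 at T0 (limma adjusted p = 0.00088, n = 3 each). Sdf2l1, a partner of BiP, averaged 6.81 ± 0.11 at T2, against 5.12 ± 0.36 at T0 (limma adjusted p = 0.000427, n = 3 each). Of 15 sensors and transcription factors of the unfolded protein response 3 fell, Creb3l2, Creb3l1 and the stress factor Atf3. Atf3 averaged 5.44 ± 0.26 at T2, against 6.25 ± 0.39 at T0 (limma adjusted p = 0.0267, n = 3 each, lost in 7 of 24 alternative fits). Of 17 targets of ATF4 and CHOP 2 rose and 1 fell (median 0.14), the last being the lipoprotein receptor Vldlr at 5.97 ± 0.32, against 7.06 ± 0.09 at T0 (limma adjusted p = 0.00131, n = 3 each). Of 14 genes of ER-associated degradation, which exports misfolded proteins for destruction, 1 rose and 1 fell (median -0.07). The ubiquitin ligase Syvn1 averaged 8.03 ± 0.10 at T2, against 7.16 ± 0.20 at T0 (limma adjusted p = 0.0164, n = 3 each, lost in 4 of 24 alternative fits). The translocation list had 1 of 17 that fell (median -0.36), the oligosaccharyltransferase list 1 of 10 (median -0.32), the p24 family 0 of 8 (median -0.42), and the cell death list 1 that rose and 1 that fell of 6 (median 0.43). These last were Bid, which links caspases to the mitochondria and averaged 7.80 ± 0.15 at T2, against 6.49 ± 0.27 at T0 (limma adjusted p = 0.000227, n = 3 each), and the death receptor gene Tnfrsf10b, at 4.56 ± 0.28, against 5.76 ± 0.09 (limma adjusted p = 0.00214, n = 3 each).

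At T4 against T2, where 56.5% of all probe sets passed and 29.4% fell, most measured chaperone, vesicle coat, translocation, degradation and oligosaccharyltransferase genes fell. Of the chaperone genes 23 of 26 fell and 1 rose (median -1.87), or 18 of 21 without the 5 genes described above, of the COPII genes 16 of 17 fell (median -1.77), of the COPI and KDEL receptor genes 12 of 13 (median -2.17), and of the translocation genes 16 of 17 (median -1.70). Degradation genes fell in 13 of 14 cases (median -1.62) and oligosaccharyltransferase genes in 9 of 10 (median -1.83). ATF4 and CHOP targets fell in 9 of 17 (median -0.74), cell death genes in 4 of 6 with 1 that rose (median -0.69), the p24 family in 5 of 8 with 1 that rose (median -1.26), and cartilage matrix genes in 10 of 13 (median -3.06). The stress sensors Atf6 and Eif2ak3 (PERK) were among 10 of 15 sensors and factors that fell, where 1 rose (median -1.16). Atf6 averaged 6.16 ± 0.69 at T4, against 8.64 ± 0.15 at T2 (limma adjusted p = 5.5e-05, n = 3 each). The oligosaccharyltransferase subunit Stt3a averaged 6.16 ± 1.38 at T4, against 9.33 ± 0.17 at T2 (limma adjusted p = 0.000169, n = 3 each). The ATF4 target Psat1, an enzyme of serine synthesis, averaged 4.52 ± 0.29 at T4, against 6.53 ± 0.04 at T2 (limma adjusted p = 1.23e-05, n = 3 each). The COPII cargo receptor Lman1 averaged 5.45 ± 0.63 at T4, against 8.16 ± 0.26 at T2 (limma adjusted p = 2.45e-05, n = 3 each). Without T4 replicate 1 the chaperone, COPII and COPI medians were -1.39, -1.41 and -1.63 (all genes -0.18), and 22, 15 and 12 genes fell. After quantile normalization, where 23.4% of probe sets fell, the falls were fewer, at 15 of 26 chaperone genes, 13 of 17 COPII genes and 10 of 13 COPI and KDEL receptor genes. In that fit 10 of 17 translocation genes, 8 of 14 degradation genes and 5 of 10 oligosaccharyltransferase genes fell, and 5 of 8 p24 genes fell while 3 rose.

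**Figure D4:**
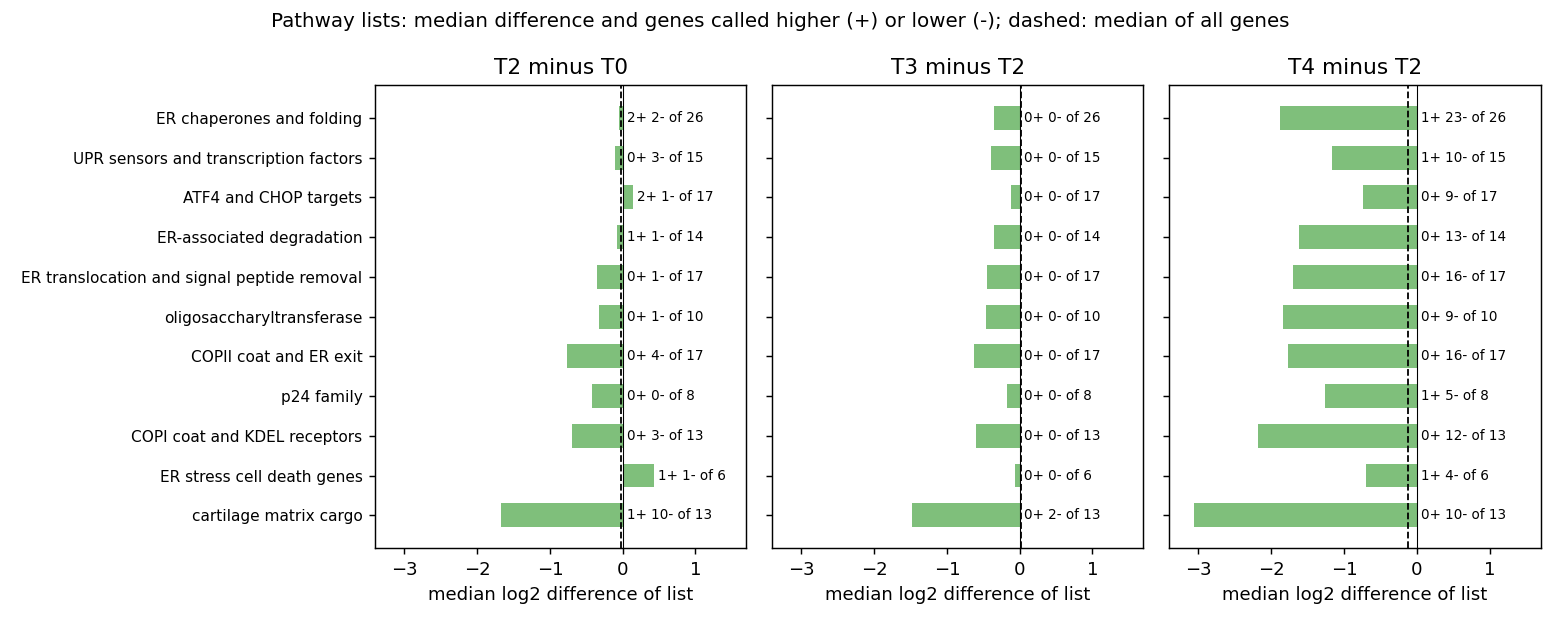
Median log2 difference of each pathway list for T2 minus T0, T3 minus T2 and T4 minus T2, with the number of genes called higher (+) or lower (-) of those measured beside each bar. The dashed line is the median of all genes. The COPII, COPI and cartilage matrix lists lie lowest at T2 minus T0, and all 11 lists have medians below that of all genes at T4 minus T2.

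Markers of other cells that a knee sample could hold moved over the same stages. The values are the log2 of the summed linear signals of each list per array, and no value of the deposited table was 0. Counts of markers at T2 against T0 stand beside 6.51% of all probe sets that rose and 6.19% that fell. Neutrophil and myeloid markers (10 measured) summed to 14.5 to 14.6 at T2, against 8.39 to 9.87 at T0, and 9 of 10 rose. B cell markers summed to 10.9 to 11.4 at T2, against 9.01 to 9.10 at T0 (5 of 5 rose), erythroid markers to 13.4 to 13.7, against 9.83 to 11.001 (6 of 6 rose), and plasma cell markers, of cells rich in XBP1, to 10.8 to 10.99, against 8.84 to 8.92 (4 of 8 rose and 1 fell). Skeletal muscle markers went the other way, at 7.66 to 8.06 in T2, against 14.1 to 14.6 in T0 (8 of 8 fell). Tendon and synovial markers (5 of 6 fell and 1 rose) summed to 10.3 to 11.9 at T2, against 11.99 to 12.1 at T0. Chondrocyte markers (4 of 7 fell) summed to 12.3 to 13.0, against 13.5 to 13.7. Osteoblast markers (3 of 8 rose) overlapped, at 12.8 to 13.6 in T2, against 13.0 to 13.5 in T0.

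Over the step at which Xbp1 was lower, the sums at T3 and T2 were 10.1 to 11.3 and 12.3 to 13.0 for chondrocytes (2 of 7 fell), 11.9 to 12.7 and 12.8 to 13.6 for osteoblasts (0 of 8 passed by limma), and 11.01 to 11.2 and 10.8 to 10.99 for plasma cells (0 of 8 passed by limma). B cell sums were 10.1 to 10.5 at T3 and 10.9 to 11.4 at T2, and neutrophil sums 14.1 to 14.4 and 14.5 to 14.6. Muscle sums (8.30 to 9.45 and 7.66 to 8.06) and adipocyte sums (8.47 to 9.03 and 7.93 to 8.41) were higher at T3. No B cell, neutrophil, muscle or adipocyte marker passed by limma. Sums of erythroid, macrophage, tendon and endothelial markers overlapped. Of all probe sets 0.15% passed at this step and 0.112% fell. The plasma cell sum was led by the antibody joining chain gene Jchain, with a mean of 10.75 at T3, against 10.28 at T2. The median difference of that list was -0.02, and the mean of the factor Irf4 was 6.52 at T3, against 7.64 at T2. At T4 against T2 the markers of chondrocytes (6 of 7), osteoblasts (6 of 8, with 1 that rose), B cells (5 of 5), macrophages (7 of 8), neutrophils (6 of 10) and endothelium (3 of 4) fell, as did 3 of 6 erythroid markers, while 3 of 8 muscle markers rose. Of 6 adipocyte markers 3 rose and 1 fell, of 8 plasma cell markers 2 rose and 3 fell, and of 6 tendon and synovial markers 1 rose and 2 fell. Marker counts at T4 against T2 stand beside 56.5% of all probe sets that passed and 29.4% that fell, and several were near those shares. The part of these cells in the values of the 10 genes was not tested.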

How the data were processed

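Total RNA from 15 samples was hybridised to RaGene 2.0 ST arrays, 3 per stage. The authors deposited log2 signals of 36685 probe sets, which the submitters' processing notes credit to RMA, a method that corrects background, forces arrays to share a distribution and condenses probes. Shifts common to most messages are therefore in part lost. Version and build of RMA's library were not given in the sources used here. No detection call came with the values, and precision rests on 3 arrays per stage.

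Probe sets were named from the platform annotation (18511 carried 1 symbol, 575 several and 17599 none). The limma package (version 3.58.1, R 4.3.3; lmFit and eBayes) fitted stage means over the 15 arrays jointly, so that stages share 1 estimate of spread. Differences are later minus earlier stage with the moderated SE. Where T4 arrays spread more than the others, this SE tends to be too small for comparisons with T4 and too large for the rest. For each of 6 comparisons and for the F test, p-values of every probe set were adjusted by Benjamini-Hochberg, with calls made under 0.05. The code was tested on simulated data. The 10 genes, the lists and most tests were chosen with earlier results of these data known. Always named were the 10 genes, and at most 2 called genes per list with the smallest p at T2 against T0 and at T4 against T2. The text gives a part of these. Exact motif matches were searched in RefSeq promoters. Alternatives are quantile normalization, array weights, fewer arrays, another stage for T1 replicate 3, a replicate block, a filter on dim probe sets, another variance prior and each array left out. Arrays set to the same median and SD, and lists without T4 replicate 1, were chosen after seeing the data.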

Additional observations from a re-analysis of the deposited data

How the results depend on the processing

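Of 60 differences (10 genes in 6 comparisons) 19 were called. Of 1480 values in 25 alternative fits, 1376 kept direction and side of the threshold, 38 lost a call and 35 gained one. The other 31 changed sign, none of them called. The cause of changes was not tested except where fewer samples or probe sets enter by construction. The mean over probe sets equals the main value, as each gene has 1. Many fits kept both stages' arrays unchanged and unweighted, and could not turn a sign.

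The number of the 10 genes that passed the F test was 10, 5 without the T4 arrays, and 8 to 10 with 1 array left out. At T1 against T0 it was 1. It was 0 after quantile normalization, with T1 replicate 3 placed with T2, with the replicate block and with arrays set to the same median and SD. It was 2 with array weights, with only the arrays compared, without the T4 arrays and with only probe sets above the median level, and 0 to 2 with 1 array left out. At T2 against T0 it was 1. It was 2 with array weights, with only the arrays compared, without the T4 arrays, with T1 replicate 3 placed with T2 and with only probe sets above the median level, and 1 to 2 with 1 array left out. At T3 against T2 it was 0, with array weights 4, without the T4 arrays 1, and 0 to 1 with 1 array left out. At T4 against T3 it was 8. It was 4 after quantile normalization, 0 with only the arrays compared and 6 to 9 with 1 array left out. At T4 against T2 it was 9, 8 after quantile normalization (Canx and Atf4 lost, Ddit3 gained), 7 with only the arrays compared (Canx and Atf4 lost), and 9 to 10 with 1 array left out. At T2 against T1 it was 0 in every fit. The replicate block, which pairs numbers only, changed no other count of the 10 genes (Creb3l2 at T1 against T0, adjusted p = 0.0513). Same-numbered arrays of different stages had deviations that correlated between -0.19 and 0.12 (30 pairs). Arrays with different numbers were not compared, so this does not settle whether the numbers mark a shared handling of samples.

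Quantile normalization turned Canx (-0.0057) and Atf4 (-0.0056) at T2 against T1, and Atf4 (0.070) and Ddit3 (-0.0025) at T3 against T2. Setting arrays to the same median and SD turned the same differences, to -0.029, -0.032, 0.11 and -0.031. With T1 replicate 3 placed with T2, T2 against T1 gave -0.0066 for Xbp1 and 0.047 for Ddit3. Array weights gave 0.0086 for Xbp1 at T2 against T0, and for Ddit3 0.0090 at T2 against T1 and -0.13 at T3 against T2. With 1 array left out, T2 against T1 ranged from -0.26 to 0.0064 for Hspa5, -0.16 to 0.11 for Pdia3, -0.038 to 0.058 for Canx, -0.056 to 0.50 for Xbp1, -0.0069 to 0.037 for Atf4 and -0.19 to 0.061 for Ddit3. Pdia4 at T1 against T0 ranged from -0.20 to 0.022, Calr at T2 against T0 from -0.048 to 0.19, Xbp1 there from -0.30 to 0.26, and Ddit3 at T3 against T2 from -0.048 to 0.21.

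The share of rises among called probe sets was 54.7% at T2 against T1 and 42.9% after quantile normalization, 25.5% and 0% at T3 against T2, and 39.0% and 51.4% at T4 against T3. The median of all genes at T4 against T2 was -0.12, -0.06 after quantile normalization and -0.33 with arrays set to the same median and SD. The medians of the 10 genes were -2.33, -1.55 and -1.93 in these fits.

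Counts over all probe sets that moved by more than 1.5 times were these. The F test gave 22043, 9366 without the T4 arrays and 14012 with only probe sets above the median level. T1 against T0 gave 2772, 6852 with array weights, 5358 with only the arrays compared, 1777 with T1 replicate 3 placed with T2 and 1796 to 3846 with 1 array left out. T2 against T1 gave 327, 2381 with array weights, 147 after quantile normalization, 596 with only the arrays compared, 604 without the T4 arrays, 9 with T1 replicate 3 placed with T2, 164 with the same median and SD, and 108 to 674 with 1 array left out. T2 against T0 gave 4659, 9230 with array weights and 7131 with only the arrays compared. T3 against T2 gave 55, 10464 with array weights, 1895 without the T4 arrays, 10, 0, 32, 146, 85 and 15 with quantile normalization, only the arrays compared, the replicate block, probe sets above the median level, the trended prior and the same median and SD, and 0 to 4165 with 1 array left out. T4 against T3 gave 15493, 2532 with only the arrays compared and 10241 with probe sets above the median level, and T4 against T2 gave 20728 and 12321 with that filter. The fit of the array weights stopped before full convergence.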
